A study of Homo sapiens with 42 samples.

Results

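The response of K562 cells to hyperosmotic KCl was compared between nuclear RNA and mRNA, as the change from CTRL to KCl in nuclear RNA minus the change from CTRL to KCl in mRNA. K562 is an established human cell line from a chronic myeloid leukemia with an erythroid character. The comparison used 12 of the 42 libraries in the series, with 3 biological replicates in each of 4 groups: nuclear CTRL, nuclear KCl 1h, mRNA CTRL and mRNA KCl 1h. KCl was added at 110 mM for 1 h, and CTRL cells were untreated. Nuclear RNA came from isolated nuclei and was depleted of ribosomal RNA, whereas mRNA was selected for poly(A) from whole cells, so that the fractions differ in both compartment and selection. All values are counts of read pairs over exons, given as normalized CPM (read pairs scaled to a common library size), and in bulk libraries fewer molecules per cell and fewer cells cannot be told apart.

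Hyperosmotic shock draws water out of cells and is a classical inducer of transcription past the ends of genes, where RNA polymerase continues beyond the poly(A) site and produces transcripts downstream of genes. Such RNA stays largely in the nucleus, whereas mature mRNA is spliced, polyadenylated and exported. Nuclear RNA therefore holds unprocessed and downstream transcripts that a poly(A)-selected library largely lacks. Processed pseudogenes are copies of spliced mRNAs inserted elsewhere in the genome, mostly without a promoter of their own.

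Total counts were 19251170 to 22588484 in nuclear libraries and 17855236 to 62953314 in mRNA libraries. The defining K562 genes were present in every library: all 11 markers tested, including the fetal globin genes, GATA1, TAL1 and KLF1, had at least 16.1 CPM. Of 9 markers of other cell types, KRT18 and EPCAM were above 10 CPM in every library, and MS4A1 was at 0 in all. The nuclear RNA MALAT1 averaged 11880 CPM in nuclear CTRL against 3021 CPM in mRNA CTRL, while 7 mitochondrial transcripts summed to 39120 CPM against 82040 CPM, so the nuclear libraries still held cytoplasmic RNA. In mRNA CTRL replicate 2 and mRNA KCl 1h replicate 1, stress genes were far above the other replicates of their groups. ATF4, a stress transcription factor, was at 170, 478 and 177 CPM in mRNA CTRL and at 506, 222 and 219 CPM in mRNA KCl 1h. The role of this spread in the results was not tested, and the count of called genes is given without these libraries below.

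The KCl response differed between fractions for 141 of 21095 tested genes, or 0.668% (edgeR quasi-likelihood test of the interaction; a gene was called when its p, adjusted by Benjamini-Hochberg, was below 0.05 and its log2 difference exceeded 0.6 either way). The difference, nuclear minus mRNA, was positive for 124 genes (0.588%) and negative for 17 genes (0.0806%). Its sign does not give the size of either change, since a fall in mRNA alone also makes it positive and a fall in nuclear RNA alone makes it negative. The 124 genes had a median log2 change of 3.46 in nuclear RNA and of 0.07 in mRNA, against -0.07 and 0.02 over all tested genes. With the 52 of them that held at most 3 counts in every nuclear CTRL library set at their lower bound, the nuclear median was 2.62. These genes were weakly expressed: their median level over the 4 groups was 1.68 CPM against 4.77 CPM for all tested genes, and 10 of the 124 reached a mean of 10 CPM. In nuclear RNA alone 13.3% of tested genes were called higher and 7.67% lower with KCl, and in mRNA alone 3.45% and 2.99%, in the same fit.

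The number of called genes was sensitive to which genes and libraries entered the fit. Genes annotated as pseudogenes made up 74 of the 141 genes, and a fit without genes of this annotation, chosen after seeing this, called 22 genes. HMGB1P1 stayed in that fit, since it is annotated as protein-coding. These 22 were ASAH2, BCAS4, BVES, CARMN, CLK4, FAM83F, FLT1, H4C3, HMGB1P1, INTS6, ITGB4, KIF26B, KIF4B, MIR17HG, MIRLET7IHG, MTUS2, OSMR, PHLDA1, SECISBP2, SNORD46, TTN and USP6. Of the 141 genes, 46 were called in all 12 fits that each left out 1 library. The count fell by more than 1.5 times without mRNA CTRL replicate 3 (78 genes), mRNA KCl 1h replicate 1 (81) or 2 (76), nuclear CTRL replicate 1 (74), 2 (59) or 3 (66), or nuclear KCl 1h replicate 3 (67). Without both mRNA CTRL replicate 2 and mRNA KCl 1h replicate 1 it was 70.

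**Figure D1:**
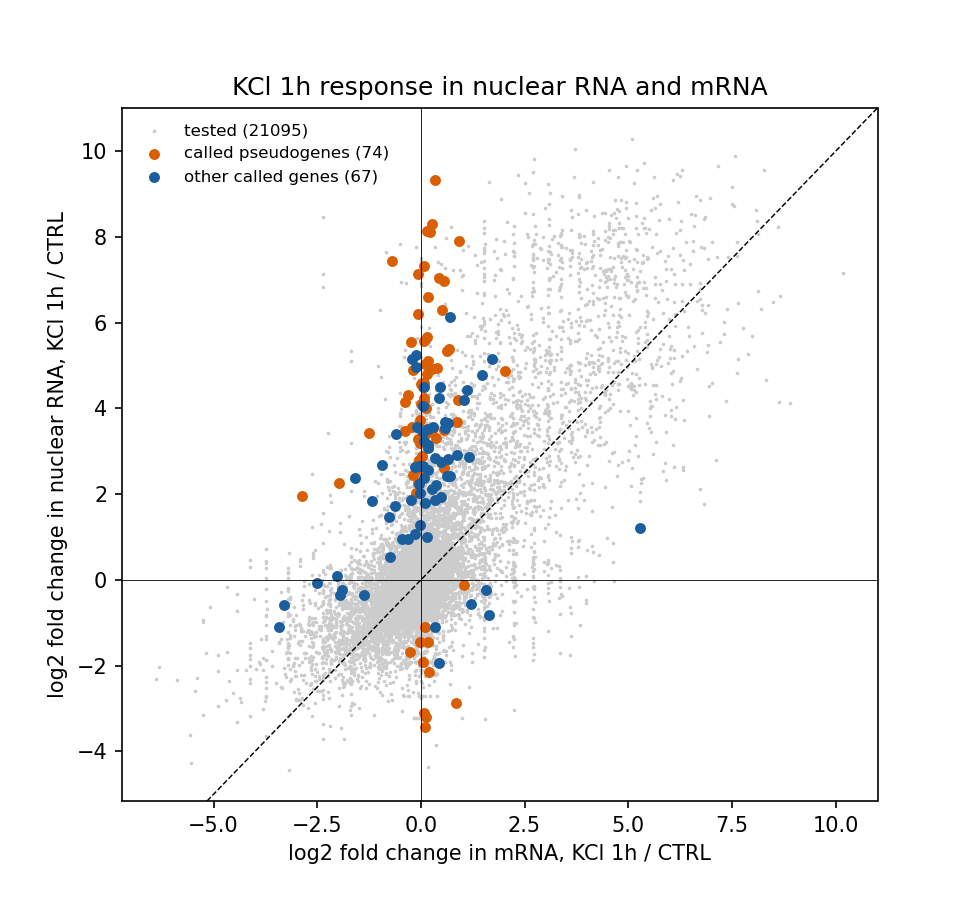
Log2 fold change with KCl 1h in nuclear RNA (vertical axis) against that in mRNA (horizontal axis) for 21095 tested genes, with called pseudogenes in orange (74) and other called genes in blue (67). Points on the dashed line changed equally in both fractions; most called genes lie above it, close to 0 on the mRNA axis.

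The called genes were sorted by the call in each fraction. Of the 124 genes with a positive difference, 112 were called higher in nuclear RNA and not called in mRNA, and 4 (BVES, DNAJC28, TMEM121B and ENSG00000224280) were called higher in both. For 7 others (LHX4, MARCHF1, MIR17HG, SNHG19, SNORD46, SOCS1 and TTN) the nuclear change was not called and the mRNA was called lower, and ENSG00000275180 was called lower in both. In nuclear RNA, the KCl and CTRL libraries did not overlap, with KCl higher, for 117 of the 124 genes, against 17.5% of all tested genes. Since these libraries made the call, the separation is a description. In mRNA the groups did not overlap either for 20 of the 124 genes with KCl higher and for 18 with KCl lower, against 2310 and 1835 of all 21095 tested genes. These counts include genes called in mRNA, and a gene not called there may still have moved.

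Named genes other than pseudogenes that rose in nuclear RNA had low levels in nuclei of CTRL cells. MTUS2, a microtubule-associated protein gene (ENSG00000132938, hg38 chromosome 13, 28820348 to 29505947), was at 0.163, 0.122 and 0.0882 CPM in nuclear CTRL and at 8.67, 10.3 and 8.46 CPM in nuclear KCl 1h. In mRNA it stayed between 0.0596 and 0.251 CPM in CTRL and between 0.153 and 0.342 CPM in KCl 1h. The nuclear groups were far apart while the mRNA groups overlapped, and the log2 difference between the responses was 5.43 (SE 0.83, edgeR adjusted p = 0.0047). Its size is uncertain, since the CTRL means were below the level of 3 counts per library. They were 0.124 CPM in nuclear RNA and 0.146 CPM in mRNA, against levels of 0.126 and 0.185 CPM. The call was lost in the fit without mRNA CTRL replicate 3.

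PHLDA1, which encodes a pleckstrin homology-like domain protein (chromosome 12, 76025447 to 76033932), rose from 1.31, 1.10 and 0.662 CPM in nuclear CTRL to 11.1, 9.57 and 14.97 CPM in nuclear KCl 1h. Its mRNA was at 1.76, 1.31 and 1.76 CPM in CTRL and at 1.66, 1.74 and 2.00 CPM in KCl 1h, with overlapping groups. The log2 difference was 3.35 (SE 0.37, edgeR adjusted p = 0.00041).

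KIF26B, a kinesin family gene on chromosome 1, went from 2.57, 2.24 and 2.87 CPM to 19.9, 19.0 and 25.4 CPM in nuclear RNA, and from 1.26, 1.13 and 2.07 CPM to 1.421, 1.41 and 2.13 CPM in mRNA. Its log2 difference was 2.90 (SE 0.35, edgeR adjusted p = 0.00081). BCAS4, on chromosome 20, went from 1.51, 1.38 and 1.10 CPM to 7.23, 8.69 and 12.9 CPM in nuclear RNA, while its mRNA groups overlapped between 2.82 and 5.05 CPM. For both genes every nuclear KCl library was above every nuclear CTRL library. BVES, a membrane protein gene known from muscle, was the named gene of this group that also rose in mRNA: nuclear RNA went from a mean of 0.267 to 7.36 CPM (log2 change 4.77) and mRNA from 0.373 to 1.04 CPM (log2 change 1.48, edgeR adjusted p = 0.035).

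Other named genes of this group also rose in nuclear RNA. COL9A2, a collagen IX chain, had a log2 difference of 3.01, ITGB4, the beta4 integrin of epithelia, one of 2.96, and SLC23A1, a vitamin C transporter, one of 2.78. FCGRT, the heavy chain of the neonatal Fc receptor, had a log2 difference of 2.71 and TTC39A one of 3.17. CARMN, a noncoding RNA that hosts microRNAs of smooth muscle, rose from 2.20, 1.99 and 1.94 CPM to 7.32, 8.07 and 16.5 CPM in nuclear RNA. Its mRNA was at 0.502, 0.656 and 0.566 CPM in CTRL and at 0.178, 0.115 and 0.289 CPM in KCl 1h, with every KCl library below every CTRL library. The mRNA log2 change of -1.58 was not called (edgeR adjusted p = 0.083) and forms part of its log2 difference of 3.95. COL9A2, TTC39A, SLC23A1 and FCGRT were not called when pseudogenes were left out of the fit. COL9A2 lost its call in 8 and TTC39A in 7 of the 12 fits without 1 library.

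A few well-expressed genes were also called, named here after their values were seen. INTS6, a subunit of the Integrator complex that cleaves nascent RNA, rose from 45.4, 37.6 and 40.1 CPM to 177, 134 and 134 CPM in nuclear RNA. Its mRNA was at 57.2, 51.3 and 61.0 CPM in CTRL and at 61.7, 66.7 and 85.02 CPM in KCl 1h, a log2 change of 0.33 that was not called. SECISBP2, which is needed for selenoprotein synthesis, rose from 55.8, 49.7 and 53.2 CPM to 109, 97.8 and 112 CPM in nuclear RNA, with an mRNA log2 change of 0.14. SECISBP2 starts 1803 bases downstream of CKS2 on the same strand, and CKS2 had a nuclear log2 change of 0.08.

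**Figure D2:**
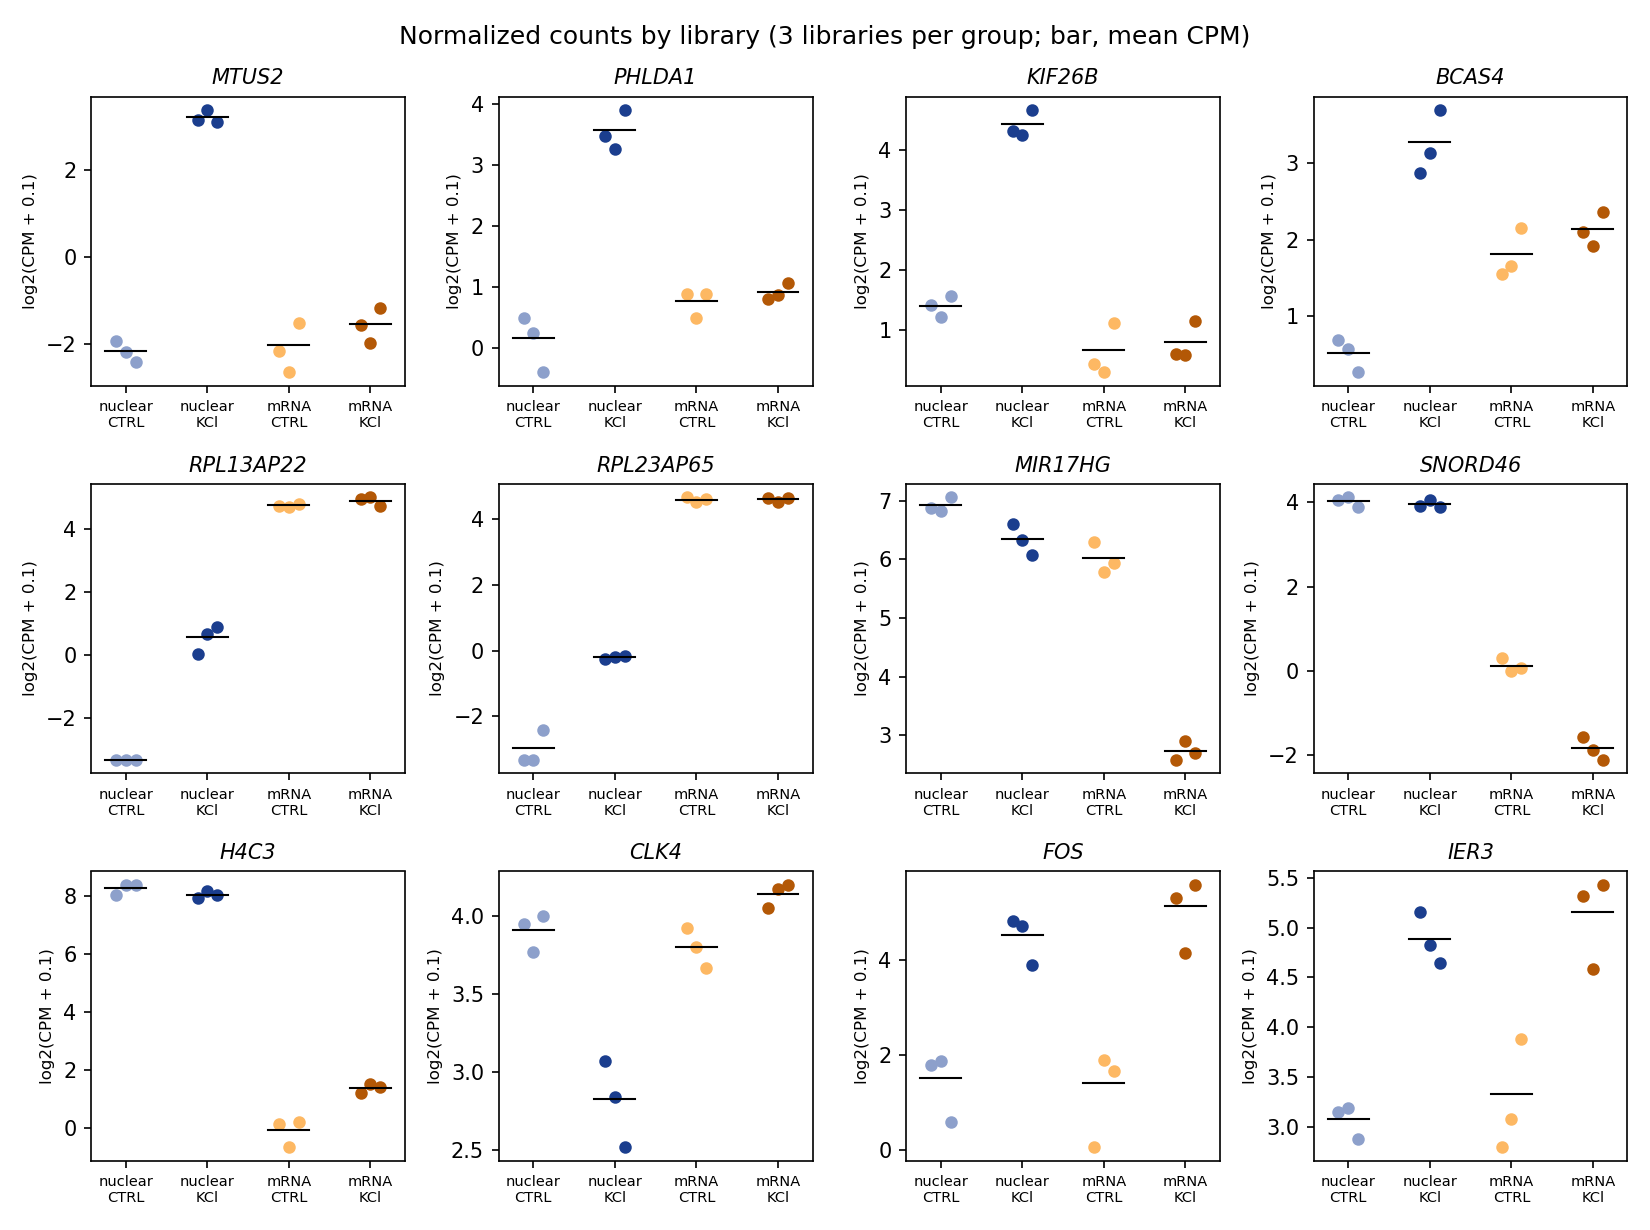
Normalized counts of 12 genes in each library, as log2(CPM + 0.1) on the vertical axis, in nuclear and mRNA libraries of CTRL and KCl 1h cells; points are libraries and bars the group means. MTUS2, PHLDA1, KIF26B and BCAS4 rose in nuclear RNA, MIR17HG and SNORD46 fell in mRNA, and FOS and IER3 rose in both.

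Processed pseudogenes made up the largest class of called genes. Of 2342 tested, 59 (2.52%) had a positive difference, beside 0.328% of 13409 protein-coding genes and 0.455% of 3514 lncRNA genes. A call in nuclear RNA alone was not particular to them. There 16.5% of processed pseudogenes were called higher with KCl, beside 11.4% of protein-coding and 16.9% of lncRNA genes. Ribosomal protein pseudogenes accounted for 12 of the genes with a positive difference and 3 of those with a negative one, out of 442 tested. These shares were not tested against each other. A processed pseudogene can be read apart from its parent only where the bases differ, and read pairs that fit both places equally were discarded.

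RPL13AP22, an intronless copy of the ribosomal protein gene RPL13A, had 0 counts in each of the 3 nuclear CTRL libraries and 20, 39 and 44 counts in nuclear KCl 1h. Against the level of 3 counts per library, nuclear RNA was at least 11.1-fold higher with KCl. In mRNA it was at 26.8, 26.1 and 27.6 CPM in CTRL and at 30.7, 32.2 and 26.4 CPM in KCl 1h, so that the copy was read mainly in mRNA libraries before treatment and its groups overlapped there. Its parent RPL13A averaged 1128 CPM in nuclear CTRL and 1600 CPM in mRNA CTRL, and had a log2 change of -0.03 in nuclear RNA and of 0.11 in mRNA. The mean of RPL13AP22 in nuclear KCl 1h was 1.39 CPM, and a rise of equal CPM in mRNA could not be seen within the spread there. How many of the mRNA counts belong to RPL13A itself was not tested.

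The same pattern was found for RPL23AP65, with 0, 0 and 2 counts in nuclear CTRL and 16, 20 and 20 in nuclear KCl 1h, at least 6.13-fold higher. HMGB1P1, annotated as protein-coding, had 2, 0 and 0 counts in nuclear CTRL and 16, 15 and 23 in nuclear KCl 1h, at least 5.94-fold higher. DYNLL1P1 had 1, 0 and 0 counts in nuclear CTRL and 16, 14 and 17 in nuclear KCl 1h, at least 5.20-fold higher. The mRNA means of these 3 genes moved from 24.1 to 24.4, from 23.0 to 24.3 and from 9.19 to 10.2 CPM. Their means in nuclear KCl 1h were 0.770, 0.745 and 0.653 CPM. A rise of equal CPM in mRNA would be small beside its level there, so a rise in nuclear RNA only is not shown. Further named copies had counts in nuclear CTRL. DHX9P1 went from 0.0816, 0.163 and 0 CPM to 2.22, 1.81 and 2.35 CPM in nuclear RNA and had a log2 difference of 4.51 (SE 0.54, edgeR adjusted p = 0.00081). SSBL4P had a log2 difference of 3.28 (SE 0.41) and RPL12P42 one of 2.32 (SE 0.43).

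Parents were examined where a copy bears the symbol of one. Of the 74 called pseudogenes, 54 bear the symbol of a tested protein-coding parent, making 45 different parents. None of the parents was called, where 0.668% of all tested genes were, a share at which 45 genes would hold few or none. The log2 differences of the parents lay between -0.32 and 1.57. HMGB1P1 and SSBL4P were not among the copies examined. Reads of near-identical copies remain uncertain, since a read pair with few differing bases can be assigned to the wrong copy.

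The position of each gene was read against expressed genes, those with at least 10 CPM in nuclear CTRL. Of the 124 genes with a positive difference, 21 (16.9%) began no more than 10000 bases past the end of an expressed gene on their strand, beside 12.3% of all tested genes. Within 50000 bases, a distance chosen after seeing the data, there were 56 (45.2%) against 31.0%. For pseudogenes the shares within 50000 bases were 42.9% of 63 with a positive difference and 17.4% of 3243 tested, and for protein-coding genes 45.5% of 44 and 34.3% of 13409. An expressed gene was overlapped by 17.7% of the 124 genes and by 30.0% of all tested genes. These shares are descriptions without a test.

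The upstream genes were examined in the same fit. The 56 genes had 55 different upstream genes, each at 10 CPM or more in nuclear CTRL by definition. Of the upstream genes 0 were called in the interaction, where 0.668% of all tested genes were. In nuclear RNA 0 were called higher and 1 lower by edgeR, against 13.3% and 7.67% of all tested genes. These shares are not of like level, since the median of all tested genes was 4.77 CPM. Far fewer nuclear calls were made in the fit of genes with a mean CPM of at least 10, given below. The low counts therefore do not set the upstream genes apart from other well-expressed genes. The median nuclear log2 change was 3.38 for the 56 genes, fitted values of genes at the floor of 3 counts included, and -0.07 for their upstream genes. Because the 56 genes were picked by their calls, the gap between these medians is a description. PHLDA1 starts 2655 bases downstream of NAP1L1, whose nuclear log2 change was 0.09. RPL7P19, singled out after its values were seen, starts 4429 bases downstream of EGR1 and went from 0, 0 and 0 counts to 59, 88 and 86 counts in nuclear RNA, at least 25.4-fold higher, while EGR1 had a nuclear log2 change of 0.01. EGR1 was at 135, 135 and 61.2 CPM in nuclear CTRL and at 164, 97.2 and 73.5 CPM in nuclear KCl 1h, with overlapping groups. TTC39A lies 9147 bases downstream of EPS15, which had a nuclear log2 change of 0.06.

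**Figure D3:**
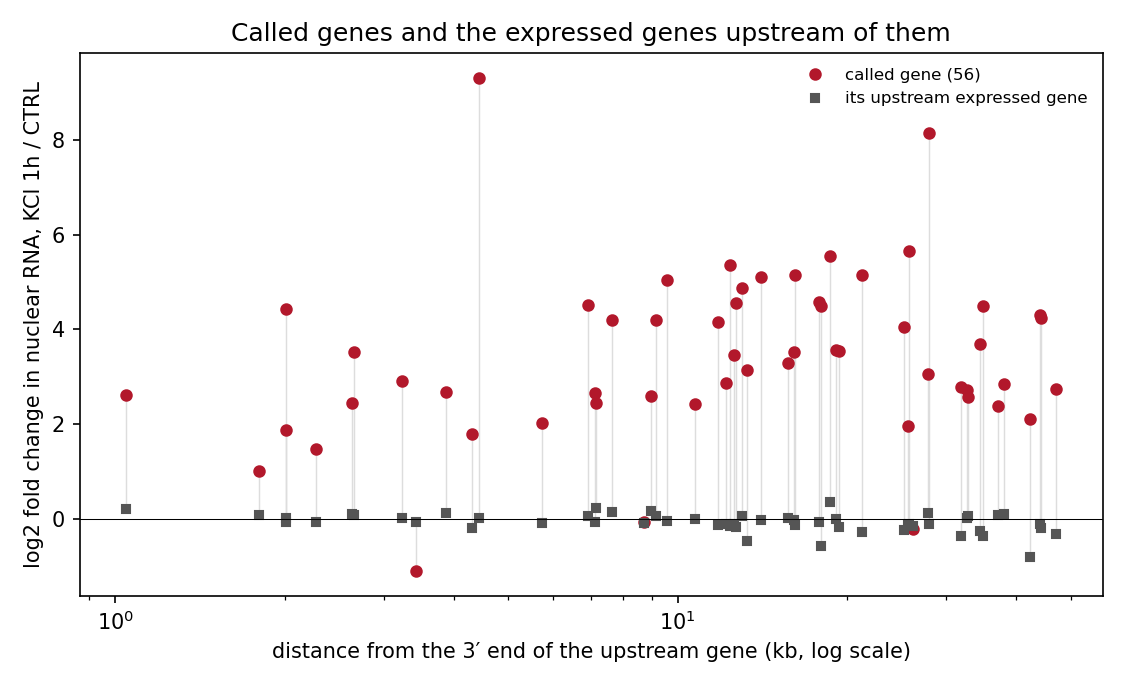
Log2 fold change in nuclear RNA (vertical axis) of 56 called genes (circles) and of the expressed gene upstream of each (squares), against the distance from the 3′ end of the upstream gene in kb on a log scale (horizontal axis). The upstream genes center on a median of -0.07, while most called genes lie above 1.

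**Figure D4:**
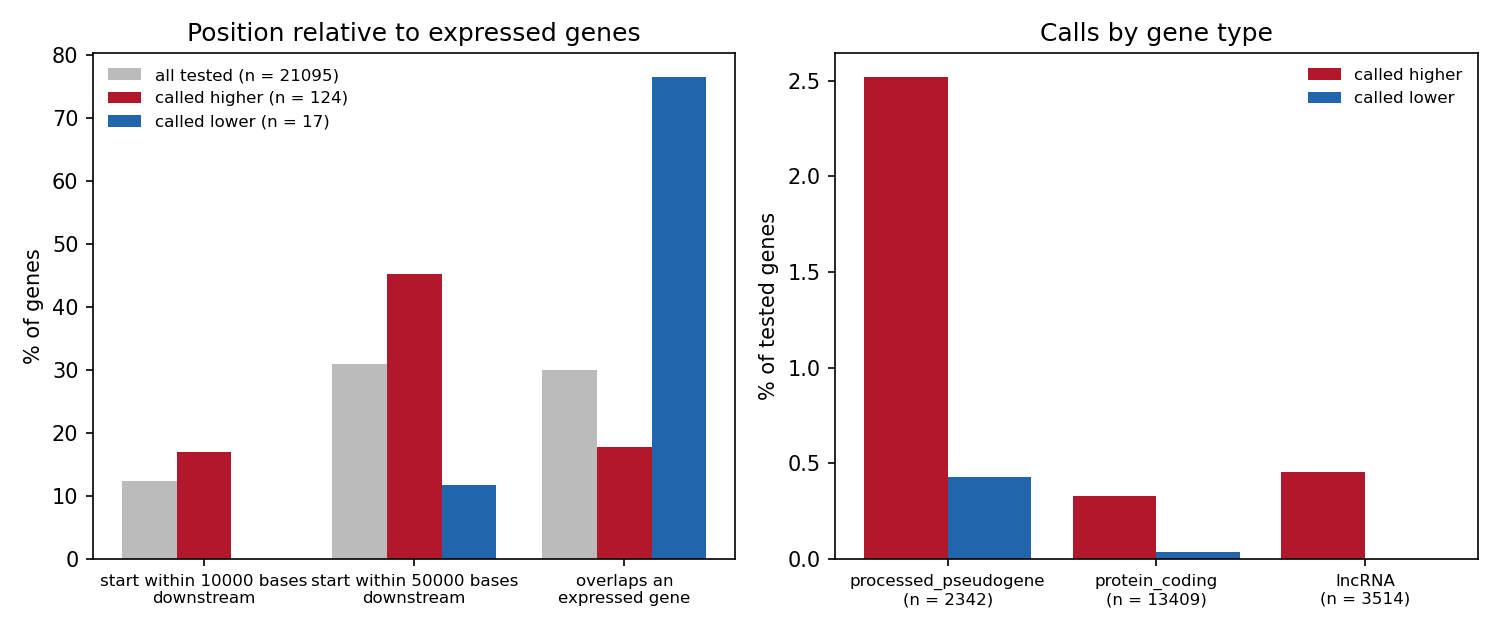
Left, percent of all tested genes (gray), genes called higher (red) and genes called lower (blue) that start within 10000 or 50000 bases downstream of an expressed same-strand gene or overlap an expressed gene; right, percent of tested processed pseudogenes, protein-coding genes and lncRNA genes called higher or lower. Here higher and lower give the sign of the difference, nuclear minus mRNA. Genes called lower overlap expressed genes in 76.5% of cases.

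The letters of AP-1 sites (TGANTCA), CRE sites (TGACGTCA) and TATA boxes (TATAAA) were counted on both strands of RefSeq promoters (GRCh38.p14, 250 bases before to 50 after the start), of which 40 matched genes with a positive difference and 11989 matched tested genes. AP-1 letters were in 12.5% of the promoters of genes with a positive difference and in 4.65% of all, in ASAH2, FAM177B, GPNMB, LHX4 and OSMR. A positive difference is not always a rise. LHX4, and SNHG19 among the promoters with TATA letters, were called lower in mRNA and not called in nuclear RNA. TATA letters were in 6 of 40 against 6.64%, and CRE letters in 1 of 40 against 3.24%. These are matches of letters, described without a test.

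MIR17HG fell in mRNA and much less in the nucleus. It is the host transcript of the miR-17-92 cluster, whose 6 microRNA precursors are cut out of the primary transcript in the nucleus by the Microprocessor complex. The main mature products are shown because the transcript is known for them, grouped by seed (bases 2 to 8, in capitals), with sequences and positions from RefSeq (GRCh38.p14, chromosome 13, 91350618 to 91351382); mature microRNAs were not measured.
hsa-miR-17-5p: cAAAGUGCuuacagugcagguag
hsa-miR-20a-5p: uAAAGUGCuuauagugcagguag
hsa-miR-18a-5p: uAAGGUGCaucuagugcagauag
hsa-miR-19a-3p: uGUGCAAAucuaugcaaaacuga
hsa-miR-19b-3p: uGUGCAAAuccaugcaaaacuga
hsa-miR-92a-3p: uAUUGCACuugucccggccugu

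In mRNA libraries MIR17HG (ENSG00000215417, chromosome 13, 91347820 to 91354579) was at 78.5, 54.8 and 60.9 CPM in CTRL and at 5.86, 7.36 and 6.39 CPM in KCl 1h. In nuclear libraries it was at 118, 114 and 134 CPM in CTRL and at 97.4, 80.4 and 67.6 CPM in KCl 1h. KCl libraries were below CTRL libraries in both fractions, with a log2 change of -3.29 (SE 0.17) in mRNA and of -0.58 (SE 0.15) in nuclear RNA, the latter within the 0.6 threshold. The log2 difference was 2.72 (SE 0.22, edgeR adjusted p = 4.3e-05), and the gene was called in all 12 fits without 1 library. In the separate fit of mRNA with KCl 3h, in which 4.41% of 16207 genes were called higher and 5.89% lower, it was still at 7.40 CPM at 3 h against 56.4 CPM in CTRL.

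MIRLET7IHG, the host of let-7i and named here after its values were seen, had fold changes of opposite sign. The mature microRNA is given with its seed in capitals (RefSeq, GRCh38.p14, chr12:62603691-62603712, plus strand).
hsa-let-7i-5p: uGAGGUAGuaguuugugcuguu
 It rose from 4.41, 4.27 and 5.82 CPM to 12.004, 11.8 and 16.5 CPM in nuclear RNA, and its mRNA was at 4.52, 2.98 and 3.96 CPM in CTRL and at 1.66, 2.48 and 2.45 CPM in KCl 1h. The mRNA change of -0.76 on the log2 scale was not called at 1 h (edgeR adjusted p = 0.065) and was called lower at 3 h (-1.38). Every mRNA KCl library lay below every mRNA CTRL library. ENSG00000275180, an lncRNA at 62603909 to 62604399 inside MIRLET7IHG on the same strand, was called lower in both fractions. Its log2 changes were -1.11 in nuclear RNA, from a mean of 1.77 to 0.819 CPM, and -3.42 in mRNA. The nuclear change of this short transcript was thus opposite to that of MIRLET7IHG. Its call in the interaction was kept in 3 of 12 fits without 1 library, so it says little about the whole locus. MIRLET7IHG starts 2273 bases downstream of MON2, whose nuclear log2 change was -0.07. The source of the nuclear reads was not tested.

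Small nucleolar RNAs are likewise released from introns of host genes. SNORD46 was at 16.4, 17.3 and 14.8 CPM in nuclear CTRL and at 14.9, 16.6 and 14.8 CPM in nuclear KCl 1h. In mRNA libraries it went from 1.13, 0.894 and 0.943 CPM to 0.237, 0.172 and 0.131 CPM, with no overlap, giving a log2 difference of 2.45 (SE 0.32, edgeR adjusted p = 0.0015). SNHG19, a snoRNA host gene, went from 9.73, 8.52 and 10.1 CPM to 4.15, 3.59 and 3.29 CPM in mRNA, with a nuclear log2 change of -0.36 that was not called. Its log2 difference of 1.02 (edgeR adjusted p = 0.046) lost its call in 10 of 12 fits without 1 library and in the fit without pseudogenes. TTN, the titin gene, named after its values were seen, had nuclear RNA at 156, 124 and 133 CPM in CTRL and 233, 175 and 187 CPM in KCl 1h, and mRNA at 48.6, 53.5 and 48.4 CPM in CTRL and 33.8, 30.2 and 25.5 CPM in KCl 1h.

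The 17 genes with a negative difference included 11 pseudogenes, 10 of which overlapped an expressed gene (90.9%, against 33.4% of tested pseudogenes). Over all 17, 13 overlapped one. In 12 of the 17 nuclear RNA alone was called lower, and in H3C12, H4C3 and SMG1P3 mRNA alone was called higher. EID3 was called lower in nuclear RNA and higher in mRNA, and FAM20A was called higher in both. EEF1A1P25, a copy of the translation elongation factor EEF1A1, went from 2.37, 1.79 and 2.51 CPM to 1.11, 1.08 and 0.918 CPM in nuclear RNA and stayed between 21.9 and 28.2 CPM in mRNA. Its log2 difference was -1.19. EEF1A1P4 (-1.61) and RPL29P11 (-1.41) had similar differences, and each of these 3 copies lost its call in at least 8 of 12 fits without 1 library. SMG1P3, a copy of the kinase gene SMG1, was at 24.1, 22.4 and 29.4 CPM in nuclear CTRL and at 22.2, 21.6 and 26.2 CPM in nuclear KCl 1h, but rose from 9.73, 7.57 and 9.05 CPM to 17.1, 15.9 and 21.4 CPM in mRNA.

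CLK4 fell in the nucleus. It encodes a kinase of SR splicing factors, and its transcripts are known to be held in the nucleus with unspliced introns. Nuclear RNA was at 15.4, 13.5 and 15.9 CPM in CTRL and at 8.30, 7.07 and 5.63 CPM in KCl 1h. Its mRNA was at 15.1, 13.9 and 12.6 CPM in CTRL and at 16.5, 18.0 and 18.3 CPM in KCl 1h, a log2 change of 0.35 that was not called. The log2 difference was -1.44 (SE 0.22, edgeR adjusted p = 0.0045) and was called in all 12 fits without 1 library. Of 25 splicing genes with detained introns, CLK4 was the 1 called in the interaction, and 3 (CLK4, DDX17 and LUC7L) were called lower in nuclear RNA, where 7.67% of all tested genes were. The median log2 difference of the list was -0.24 against -0.07 over all genes.

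Replication-dependent histone mRNAs end in a stem-loop and normally carry no poly(A) tail. The stem-loops of H4C3 (hg38 chr6:26104317-26104332, plus strand) and H3C12 (hg38 chr6:27890320-27890335, minus strand) are shown, found as the first 6-base inverted repeat around 4 bases after the stop codon, with the paired stem in capitals. They begin 57 and 46 bases after the stop codon.
H4C3: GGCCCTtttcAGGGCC
H3C12: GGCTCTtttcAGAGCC

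H4C3, a histone H4 gene, was at 261, 332 and 334 CPM in nuclear CTRL and at 240, 285 and 262 CPM in nuclear KCl 1h, with overlapping groups. In poly(A)-selected mRNA it rose from 1.00, 0.536 and 1.07 CPM to 2.25, 2.75 and 2.60 CPM, and every KCl library was above every CTRL library. The log2 difference was -1.80 (SE 0.26, edgeR adjusted p = 0.0034). In the separate mRNA fit it was at 3.64 CPM at 3 h, a log2 change of 2.26 from CTRL. H3C12, a histone H3 gene, went from 0.565, 0.536 and 0.189 CPM to 1.13, 1.05 and 0.894 CPM in mRNA and from 66.9, 71.3 and 88.8 CPM to 46.6, 47.6 and 60.3 CPM in nuclear RNA. Its log2 difference of -1.77 was lost in 7 of 12 fits without 1 library and without pseudogenes. Of 53 histone genes tested, these 2 were called, and the median log2 difference was -0.23.

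Several genes of the immediate early and stress responses rose in both fractions, and none was called in the interaction. Members still differed widely. The log2 differences ran from -0.71 to 3.18 in the immediate early list and from -0.71 to 2.47 in the growth arrest and stress list, so an equal response in both fractions is not shown for every member. Of 22 immediate early genes, 8 were called higher in nuclear RNA and 7 in mRNA, where 13.3% and 3.45% of all tested genes were. FOS, IER3 and GADD45B were picked outside the rule for named genes, as examples that rose in both fractions. FOS, a subunit of the transcription factor AP-1, went from 3.35, 3.54 and 1.41 CPM to 27.9, 26.1 and 14.7 CPM in nuclear RNA and from 0.941, 3.64 and 3.08 CPM to 39.0, 17.5 and 47.6 CPM in mRNA. Its log2 difference of -0.71 had an SE of 0.72 (edgeR adjusted p = 0.87), so that a difference of this size could not be told from 0. IER3, an early gene of cell survival, had log2 changes of 1.82 and 1.84 in nuclear RNA and mRNA, with a log2 difference of -0.02 (SE 0.37). GADD45B, a stress sensor of the growth arrest list, had log2 changes of 3.58 and 4.29. The immediate early genes with the highest levels among those not called, MYC and EGR1, had log2 differences of -0.02 (SE 0.22) and 0.07 (SE 0.81).

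Of 14 osmotic stress genes, 2 were called higher in nuclear RNA (SGK1, a kinase that regulates ion transport, and SLC6A12, a betaine transporter) and 1 in mRNA, shares that are near the 13.3% and 3.45% of all tested genes. SLC38A2, an amino acid transporter induced by hypertonicity, was at 352, 273 and 186 CPM in nuclear CTRL and 796, 692 and 451 CPM in nuclear KCl 1h, and at 264, 768 and 276 CPM in mRNA CTRL and 1316, 1052 and 966 CPM in mRNA KCl 1h. The groups did not overlap in either fraction, but neither change was called, and the log2 difference was -0.09 (SE 0.59). SLC38A1 had a log2 difference of 0.06 (SE 0.21). Of 14 growth arrest and stress genes 1 was called higher in each fraction, no clear departure from the same shares over all genes. ATF4 and TXNIP, the uncalled members with the highest levels, had log2 differences of 0.15 (SE 0.63) and 0.13 (SE 0.50).

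With 0.668% of all tested genes called in the interaction, lists of this size would hold few or no called genes at that share. None of 15 heat shock genes, 13 NF-kB targets, 9 MAP kinase feedback genes, 261 divergent transcripts, 40 intronic transcripts, 408 zinc finger genes, 86 cytosolic ribosomal protein genes or 101 respiratory chain genes was called in the interaction. MIR17HG was the 1 called of 28 genes with a symbol of the form MIR, a number and HG, a list that leaves out the microRNA hosts MIRLET7IHG and CARMN, both called. SNHG19 was the 1 called of 29 snoRNA host genes. Of 704 antisense transcripts, POC1B-AS1 and RAB33B-AS1 were called. POC1B-AS1 rose from 2.45, 2.72 and 2.60 CPM to 9.92, 8.88 and 13.0 CPM in nuclear RNA and was at 1.71 CPM or less in mRNA. RAB33B-AS1 went from 6.00, 5.12 and 6.75 CPM to 10.5, 9.03 and 14.97 CPM in nuclear RNA. Counting ignored strand, so reads of an antisense transcript and of its partner cannot be told apart where their exons overlap, and both calls were lost without pseudogenes.

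**Figure D5:**
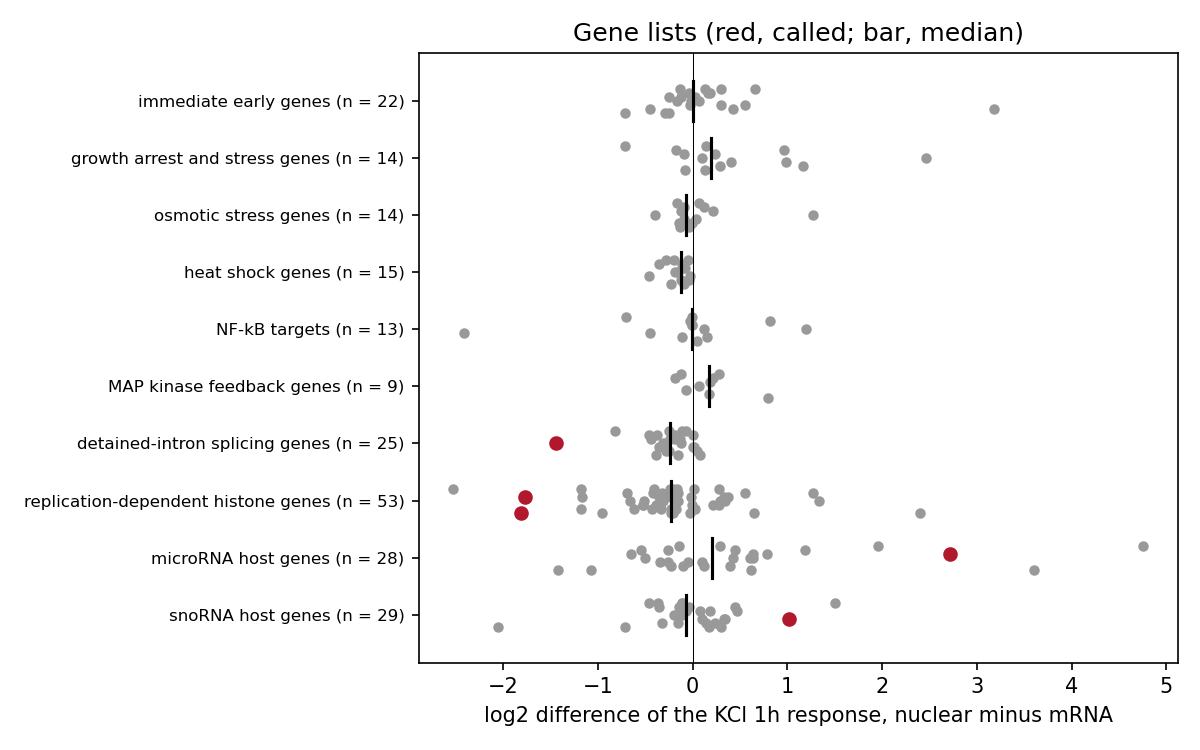
Log2 difference of the KCl 1h response, nuclear minus mRNA (horizontal axis), for the tested members of 10 gene lists; points are genes, red points are called genes and bars are medians. The stress and immediate early lists have no called gene and medians between -0.12 and 0.19.

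The same genes were set against JTE-607 for 1 h at 5 μM, a compound that targets the nuclease which cleaves transcripts at their 3′ ends. The test asked whether nuclear minus mRNA differed between KCl 1h and JTE 1h cells. It called 0.27% of 21117 genes higher and 0.09% lower with KCl, and it reuses the KCl libraries, so that its calls are not independent of those above. The 124 genes had a median of 0.137 CPM in nuclear CTRL and 1.97 CPM in nuclear KCl 1h, and 123 of them had a median of 0.397 CPM in nuclear JTE 1h, in the fit with JTE-607. RPL13AP22 was at 0.0507 CPM in nuclear JTE 1h, below the level of 3 counts, and was called higher with KCl (edgeR adjusted p = 0.0004). BVES was at 0.307 CPM in nuclear JTE 1h (log2 difference 2.76, edgeR adjusted p = 0.028), BCAS4 at 1.74 CPM (1.97, edgeR adjusted p = 0.017) and INTS6 at 42.5 CPM (1.13, edgeR adjusted p = 0.016). CLK4 was at 12.2 CPM in nuclear JTE 1h, with a log2 difference of -1.38 (edgeR adjusted p = 0.026). MTUS2, at 2.27 CPM, and KIF26B, at 7.24 CPM in nuclear JTE 1h, lay between nuclear CTRL and KCl 1h, and their differences of 1.44 and 0.95 were not called. MIR17HG was also low in mRNA with JTE-607, at 13.3 CPM, and its difference between the treatments was not called (1.09, edgeR adjusted p = 0.40).

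The mRNA libraries at 3 h were used to see whether the nuclear genes appeared in mRNA later. Of the 98 genes with a positive difference that were tested at 3 h, 11 were called higher and 8 lower than CTRL, beside 4.41% and 5.89% of all genes tested at 3 h, with a median log2 change of 0.27. Among those called higher, BVES, DNAJC28 and ENSG00000224280 were already called higher in mRNA at 1 h. Among those called lower, ENSG00000275180, LHX4, MARCHF1, MIR17HG, SNORD46 and TTN were already called lower in mRNA at 1 h. SECISBP2 was called higher, at 54.6 CPM in CTRL, 59.8 CPM at 1 h and 115 CPM at 3 h. PHLDA1 was at 1.40, 1.56 and 2.16 CPM and was not called. Of 16 tested genes with a negative difference, EID3, FAM20A, H3C12, H4C3 and SMG1P3 were called higher at 3 h, and each was already called higher in mRNA at 1 h. The 3 h test reuses the mRNA CTRL libraries, so its calls are not independent of those at 1 h.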

How the data were processed

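The authors trimmed and deduplicated paired reads, aligned them to hg38 with STAR, keeping uniquely mapped reads and introns up to a set length, and deposited raw counts of read pairs per gene from featureCounts over exons without a strand option. Both count tables were joined on gene ID (58243 IDs, of which 57532 are in GENCODE 44, used for gene types). No count column was without a sample. A single model of 12 libraries with 1 term per group was fitted by robust quasi-likelihood (edgeR 4.0.16, R 4.3.3) after filterByExpr and TMM scaling. Separate fits compared KCl with JTE-607 and mRNA at 3 h with CTRL. CPM are TMM-normalized. Fold changes against groups with at most 3 counts in every library set that group at 3 counts per library. These lower bounds allow for counting error in that group, and not for counting error in the KCl libraries or variation between replicates.

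Named genes were the 16 largest positive and 10 largest negative differences among called genes with a symbol, a group mean of at least 5 CPM and more than 3 counts in some library of each group (7 met this on the negative side), the 4 most abundant called genes with a group at that floor, called list members, and the 2 most abundant uncalled members of each of 3 lists. Other genes are said to be chosen later or outside this rule, or are listed as members, parents or neighbors. The members and lists were chosen with earlier results of these data known. Same-number libraries deviated together in nuclear RNA (correlations from 0.586 to 0.891) but in only 1 of 3 pairs in mRNA (-0.151, -0.149 and 0.84). No replicates were alike within sampling noise. The test was checked on simulated data. Alternatives included DESeq2 1.42.0 and limma 3.58.1. Some items are not reported here.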

Additional observations from a re-analysis of the deposited data

Results flagged for a closer look

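The KCl response differed between nuclear RNA and mRNA, by a test of the difference itself, for 141 genes. The nuclear minus mRNA contrast also differed between KCl 1h and JTE 1h for 76 genes, by the same kind of test.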

How the results depend on the processing

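Called genes of the nuclear minus mRNA response (141) numbered 393 with DESeq2, 936 with limma voom and group weights, 400 with no low-count filter, 9 among genes with a mean CPM of at least 10, 329 with all 42 libraries, 22 without pseudogenes and 70 without both mRNA libraries with high stress genes. Of the 141, DESeq2 called 139 and voom 140. With the replicate block the count was 310 (136 of the 141 kept). In mRNA 2 of 6 libraries correlated best with their own number, mRNA CTRL replicate 2 correlated with mRNA KCl 1h replicate 1 (r = 0.749), and the read totals of mRNA CTRL replicates 1 and 2 are listed in the other order by the study, so whether the numbers pair the mRNA samples, and with it the blocked count, is uncertain. Leaving out 1 library gave 59 to 166 genes, with the libraries named in the report.

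The difference between KCl and JTE-607 (76 genes) gave 195 with DESeq2, 397 with voom, 309 with no filter, 7 at a mean CPM of at least 10, 651 with the replicate block and 19 without pseudogenes. Leaving out 1 library gave 27 to 88, with 27, 33 and 46 without nuclear JTE 1h replicates 3, 2 and 1, 48 without mRNA JTE 1h replicate 1, 43 without mRNA KCl 1h replicate 2 and 45 without nuclear KCl 1h replicate 3. Without a filter, the nuclear response gave 7212 genes and mRNA at 3 h 3028. At a mean CPM of at least 10, which tests fewer genes, the nuclear response gave 145, the mRNA response 110 and mRNA at 3 h 411. The causes were not tested. Among the genes named by rule, no called value changed sign under any alternative run, but the differences of the uncalled ATF4, EGR1, SLC38A2, SLC38A1, TXNIP and MYC did under some. Signs of the other called genes were not compared. For the named genes, 86 of the results without 1 library and 36 under other alternatives kept their direction but lost the call. The fits without pseudogenes and without both mRNA libraries were chosen after seeing the data. The depth limits differences in genes near 3 counts per library.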
